A study of Mus musculus with 4 samples.

Results

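The signature cytokines of effector T helper cells were examined in regulatory T (Treg) cells that lack Setd2. The members were the 10 genes Ifng, Il2, Il4, Il5, Il13, Il17a, Il17f, Il21, Tnf and Csf2, chosen by name for the T helper cells known to secrete their products, and they were taken from 24087 genes in the expression table. Earlier results of these data were known when the members were chosen. Setd2 encodes the enzyme that places H3K36me3, a histone mark of transcribed gene bodies. RNA-seq was performed on Treg cells sorted as CD3+CD4+YFP+ from the spleen of C57BL/6 mice, with 2 libraries per genotype. The KO libraries came from Foxp3Cre-YFPSetd2f/f mice, in which both Setd2 alleles are floxed, and the CTRL libraries from Foxp3Cre-YFPSetd2f/+ littermates, in which 1 allele is floxed. All 4 libraries thus came from animals with the Foxp3Cre-YFP allele, which drives Cre in cells that express Foxp3, and CTRL Treg cells were themselves deleted for 1 allele of Setd2 where Cre had acted. Each library was made from approximately 1000000 cells pooled from 2 mice, so single animals could not be compared. The age and the sex of the mice were not given in the labels.

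CD4+ T helper cells are grouped by the cytokines they release. Th1 cells make interferon gamma, Th2 cells make IL-4, IL-5 and IL-13, Th17 cells make IL-17A and IL-17F, and follicular helper (Tfh) cells make IL-21. IL-2, TNF and GM-CSF (the product of Csf2) are released by several effector types, whereas Foxp3 is known to repress Il2 in Treg cells, which take up IL-2 through a high-affinity receptor instead. These genes are silent or weak in resting cells and are induced through the antigen receptor, by factors such as NFAT and NF-kappaB, and many of their mRNAs are short-lived because proteins bind AU-rich elements in the 3' UTR.

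Sequence features known from inducible transcripts were counted in the promoters and 3' UTRs of the members, and some are shown here because the level of an mRNA depends on both its induction and its decay. Promoter windows of 250 bases before the start of transcription were taken from RefSeq (GRCm38.p6), which held 11 windows for the 10 genes since Il4 had a pair of starts. The TATA box TATAAA, searched on the strand of the gene, stood in the windows of 6 of the 10 genes (Ifng, Il2, Tnf, Il13, Il17a and Il17f), against 7.6% of 32851 windows of all genes. The NFAT core GGAAA, searched on both strands, stood in the windows of 9 of the 10 genes against 55.6% of all windows. The core of NF-kappaB sites (GGG, any 5 bases, CC), also searched on both strands, stood in 4 of the 10 genes against 45.8% of all windows. The windows of the most abundant members, Ifng and Tnf, and of Il2, the cytokine that Foxp3 represses, are printed 5' to 3' with all 3 motifs in capitals. TTTCC is the NFAT core read from the other strand. The Ifng window lies at chr10:118440796-118441045 on the plus strand, the Tnf window at chr17:35202008-35202257 on the minus strand and the Il2 window at chr3:37125955-37126204 on the minus strand.
Ifng: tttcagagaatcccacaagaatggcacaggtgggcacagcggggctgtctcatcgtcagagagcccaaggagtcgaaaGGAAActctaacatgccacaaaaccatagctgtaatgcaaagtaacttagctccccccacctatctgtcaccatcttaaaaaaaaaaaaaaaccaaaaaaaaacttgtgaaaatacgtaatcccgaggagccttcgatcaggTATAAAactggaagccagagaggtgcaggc
Tnf: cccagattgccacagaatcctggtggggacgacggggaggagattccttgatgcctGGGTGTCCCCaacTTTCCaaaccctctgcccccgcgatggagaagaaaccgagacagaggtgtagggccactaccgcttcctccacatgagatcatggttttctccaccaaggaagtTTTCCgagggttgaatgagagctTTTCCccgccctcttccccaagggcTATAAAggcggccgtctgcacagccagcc
Il2: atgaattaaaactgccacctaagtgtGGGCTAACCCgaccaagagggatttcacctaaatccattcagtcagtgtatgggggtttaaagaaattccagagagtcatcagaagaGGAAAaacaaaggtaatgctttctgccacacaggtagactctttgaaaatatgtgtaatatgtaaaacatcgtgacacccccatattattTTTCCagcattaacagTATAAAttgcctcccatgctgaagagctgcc
The TATA box began at position -30 in Ifng, -29 in Tnf and -31 in Il2, counted back from the start. The Ifng window held 1 NFAT core and no NF-kappaB core, the Tnf window 3 and 1, and the Il2 window 2 and 1. These are matches of letters, and binding was not measured at them here.

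The 3' UTRs of the same genes, from GENCODE vM21 on GRCm38 with the longest 3' UTR of each gene, were searched for the AU-rich nonamer TTATTTATT and the pentamer ATTTA on the strand of the mRNA, with overlapping copies counted and with each nonamer holding a pentamer. The nonamer stood in 5 of the 10 genes, against 7.7% of 20302 genes with an annotated 3' UTR. Tnf held 5 copies and Csf2 held 4, while Il2, Il13 and Il21 held 1 each, and 1.8% of all genes held 2 or more. All 10 genes held the pentamer, with 2 copies in Il4 and up to 9 in Csf2 and Il21, and the median over all genes was 1. The 3' UTRs of the members ran from 104 bases in Il4 to 2578 in Il21, with a median of 988 over all genes. The 30 bases around the nonamers of the members with the most copies, and of Il2, are shown with the nonamers in capitals, where overlapping copies merge. The Tnf window holds 4 of its 5 copies and the Csf2 window all 4.
Tnf: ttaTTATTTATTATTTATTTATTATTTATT
Csf2: tttaaatatTTATTTATTTATTTATTTATT
Il2: actatttatctgaaaTTATTTATTatattg

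**Figure D1:**
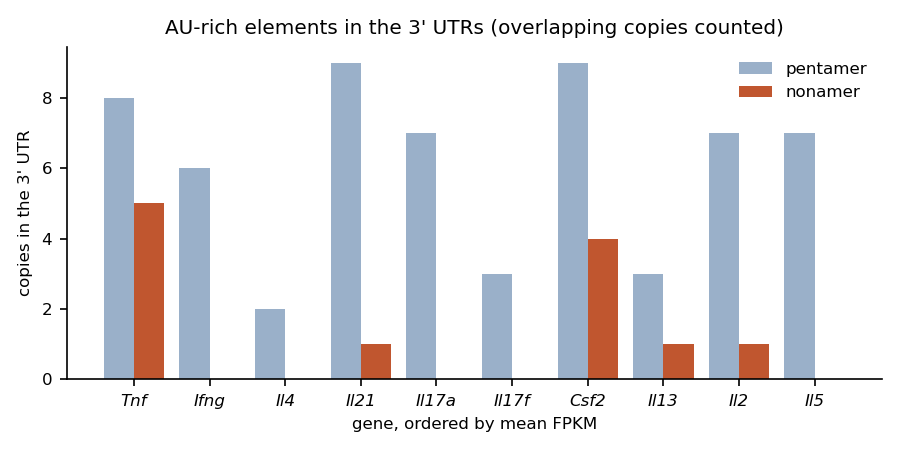
Bars give the number of AU-rich pentamers and nonamers in the longest 3' UTR of each cytokine gene, with genes in the order of their mean FPKM. Tnf, the most abundant member, had 5 nonamers, Csf2, one of the weakest, had 4, and Ifng, Il4, Il5, Il17a and Il17f had none.

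The unit was FPKM, in which fragments are divided by the length of the gene and by library size. Levels can be compared between genes only as far as that length is right, and the length used was not given. All 4 libraries had a similar depth, with at least 30575941 to 33184295 reads recovered from the values and summed FPKM of 465594 to 472830. CTRL 1 stood apart in having 19100 genes above 0, against 15913 to 16410 in the other libraries. The label was checked against 6 Treg markers (Foxp3, Il2ra, Ctla4, Tnfrsf18, Ikzf2 and Ikzf4), none of which was at 0 and whose summed level was 1107 to 1214 FPKM per library. Of the 2 CD8 T cell markers, Cd8a was at 0.156 to 0.326 FPKM and Cd8b1 at 8.33 to 11.2 FPKM. Markers of B cells and myeloid cells were present too, at summed levels of 998 to 2594 FPKM over 8 genes and 85.9 to 241 FPKM over 8 genes. The 6 T cell markers summed to 1640 to 1768 FPKM per library. The B cell sum was above the T cell sum in CTRL 1 and KO 1 and below it in CTRL 2 and KO 2. Sums over different genes do not give shares of cells. The targeted gene Setd2 was at 23.4 and 25.3 FPKM in the CTRL libraries and 21.3 and 19.5 FPKM in the KO libraries (log2 fold change -0.24, standard error 0.076, adjusted p = 0.0970 by limma), a difference over the whole gene that missed the threshold. Nothing in the labels says that the 2 libraries of a genotype differ beyond their pools of mice, and p-values measure the spread between such pools only.

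To find which effector cytokines splenic Treg cells transcribe, the members were ordered by FPKM. Tnf and Ifng were the abundant members in both genotypes, Il4 and Il21 lay around 1 FPKM, and the other 6 genes stayed below 1 FPKM in all 4 libraries. Tnf and Ifng together made up 91.6% and 95.3% of the summed FPKM of the 10 genes in CTRL 1 and CTRL 2, and 89.4% and 89.4% in KO 1 and KO 2. Of the 19888 genes above 0 in any library, 16.9% had a higher mean FPKM than Tnf, 23.6% than Ifng, 53.4% than Il4 and 70.2% than Il5. Every member had at least 1 read in every library.

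The 6 genes below 1 FPKM were Il17a, Il17f, Csf2, Il13, Il2 and Il5, and 41.0% of the 19888 genes above 0 in any library lay below 1 FPKM in all 4. Nearest to the limit from below was Il17a, with a highest value of 0.629 FPKM. Nearest from above was Il21, which lay above 1 FPKM in CTRL 1 and KO 1 only, followed by Il4, which lay below it in CTRL 2 at 0.992 FPKM. In the order of mean levels the ranges over the libraries of Tnf and Ifng did not overlap, nor did those of Ifng and Il4. From Il4 down to Il5 the range of every gene overlapped that of its next neighbour. Il21 nevertheless lay above Il17a within each library. In CTRL 1, CTRL 2, KO 1 and KO 2, Il21 was at 1.05, 0.432, 1.52 and 0.624 FPKM. Il17a was at 0.573, 0.148, 0.629 and 0.193 FPKM in the same order. For the other neighbours among these 8 weaker genes, the order changed between libraries.

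**Figure D2:**
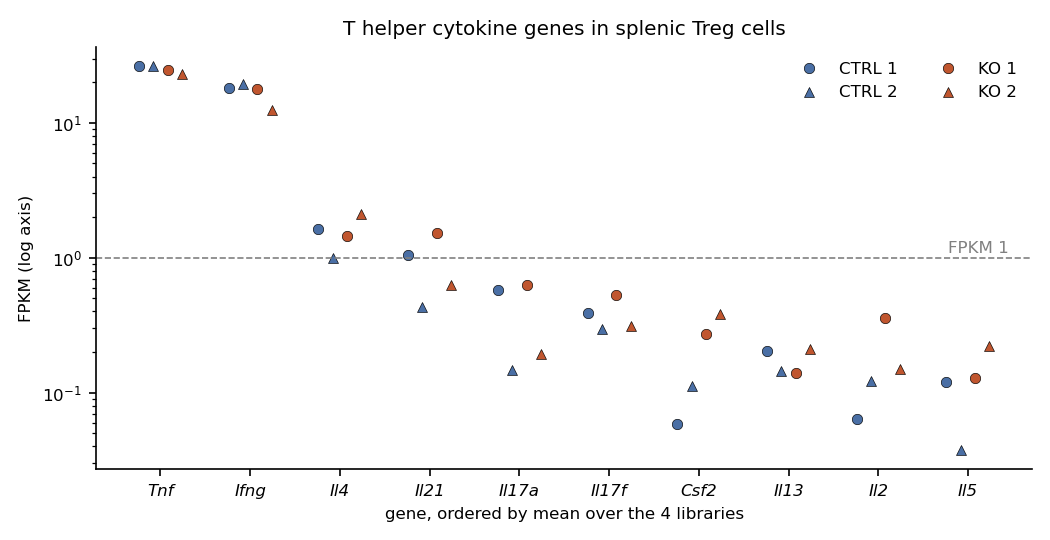
Points give the FPKM of each cytokine gene in each library on a log axis, blue for CTRL and orange for KO, circles for replicate 1 and triangles for replicate 2, with a dashed line at FPKM 1. Tnf and Ifng lie above 10 FPKM in every library, and Il17a, Il17f, Csf2, Il13, Il2 and Il5 lie below 1 FPKM in every library.

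KO was then compared with CTRL to find whether loss of Setd2 changes the transcription of effector cytokines by Treg cells. Of the 10 members, 4 reached 1 FPKM in at least 2 libraries and were tested (Tnf, Ifng, Il4 and Il21), and none of the 4 passed an adjusted p of 0.05 in either direction (limma on log2(FPKM + 1), Benjamini-Hochberg over 11399 genes). By the same rule, 5.1% of all genes tested passed as higher and 4.65% as lower in KO. At an unadjusted p under 0.05 the count of members was also 0, by limma as well as by limma-voom on reads recovered from the FPKM, which allowed all 10 members to be tested among 15223 genes. Over all genes at that cut, 1855 were higher and 2099 lower of 11399 by limma. By limma-voom 2162 were higher and 2397 lower of 15223. A p that misses the threshold does not show equal levels, so the interval of each difference is given. The mean of KO was above that of CTRL in 8 of the 10 genes, all but the abundant Tnf and Ifng. The groups overlapped in 5 of these 8, namely Il4, Il13, Il17a, Il17f and Il21. Of the members tested by limma, 2 of 4 had a log2 fold change above 0, against 5271 of all 11399 genes tested.

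Ifng encodes interferon gamma, the Th1 cytokine that activates macrophages (ENSMUSG00000055170, chr10:118441046-118445892, plus strand, GRCm38). It was measured at 18.1 FPKM (CTRL 1) and 19.5 FPKM (CTRL 2) against 17.7 FPKM (KO 1) and 12.4 FPKM (KO 2), from at least 717, 816, 755 and 530 reads. The KO libraries were both lower than either CTRL library, KO 1 by little and KO 2 by more. The mean was 18.8 ± 1.0 FPKM in CTRL and 15.0 ± 3.8 FPKM in KO (SD, n = 2), and the log2 fold change was -0.32, with a standard error of 0.17 and a 95% interval from -0.75 to 0.10 (limma adjusted p = 0.235). The size of the difference rested on KO 2. It was -0.081 without KO 2 and -0.57 without KO 1. Markers of NK cells, which also transcribe Ifng, had summed levels of 9.74 and 8.12 FPKM in CTRL and of 7.33 and 7.90 FPKM in KO over 8 genes. The KO libraries were both lower than either CTRL library in 3 of these 8 genes and both higher in 2, and none was at 0. Of the 19888 genes above 0 in any library, 26.5% had both KO libraries lower and 21.9% both higher. Their part in the level of Ifng was not tested. In sorted cells measured in bulk, fewer cells that make an mRNA and less mRNA in each of them cannot be told apart, which holds for every cytokine here. The predicted gene Gm49751 overlaps Ifng on the same strand, and reads from it cannot be separated.

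Tnf encodes tumour necrosis factor, an inflammatory cytokine of Th1 cells, other lymphocytes and myeloid cells (ENSMUSG00000024401, chr17:35199381-35202007, minus strand). It was the most even member, measured at 26.3 FPKM (CTRL 1) and 26.3 FPKM (CTRL 2) against 24.7 FPKM (KO 1) and 23.1 FPKM (KO 2), from at least 1326 reads in each library. The KO libraries were again both lower than either CTRL library. The log2 fold change was -0.13, with a standard error of 0.063 and an interval from -0.29 to 0.028 (limma adjusted p = 0.205), so that a fall of more than 0.29 on the log2 scale lay outside the interval. Myeloid markers had summed levels of 175, 105, 241 and 85.9 FPKM in CTRL 1, CTRL 2, KO 1 and KO 2, and their part in the level of Tnf was not tested. Ifng and Tnf were the only 2 of the 10 members with both KO libraries below both CTRL libraries, and 26.5% of the 19888 genes above 0 had that arrangement.

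Il4 encodes the Th2 cytokine that drives class switching to IgE in B cells (ENSMUSG00000000869, chr11:53602982-53618669, minus strand). It was measured at 1.63 FPKM (CTRL 1) and 0.992 FPKM (CTRL 2) against 1.44 FPKM (KO 1) and 2.11 FPKM (KO 2), from at least 45, 29, 43 and 63 reads. The groups overlapped, since KO 1 lay between the CTRL libraries. The log2 fold change was 0.27, with an interval from -0.25 to 0.78 (limma adjusted p = 0.393), and it ran from 0.069 without CTRL 2 to 0.47 without CTRL 1. Markers of basophils and mast cells, which also transcribe Il4, summed to 1.67, 0.902, 2.27 and 1.23 FPKM over 6 genes in CTRL 1, CTRL 2, KO 1 and KO 2. Of these, Mcpt8, Fcer1a, Ms4a2, Prss34 and Mcpt4 were listed at 0 in at least 1 library. The part of these cells in the level of Il4 was not tested.

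The other Th2 cytokines were far lower. Il5, which supports eosinophils (ENSMUSG00000036117, chr11:53720794-53725106, plus strand), was measured at 0.119 FPKM (CTRL 1) and 0.0376 FPKM (CTRL 2) against 0.129 FPKM (KO 1) and 0.221 FPKM (KO 2), from at least 6, 2, 7 and 12 reads. Il13, which acts on epithelium and mucus (ENSMUSG00000020383, chr11:53631324-53634702, minus strand), was at 0.202, 0.144, 0.141 and 0.210 FPKM in the same order, from 8, 6, 6 and 9 reads. Both KO libraries lay above both CTRL libraries in Il5, KO 1 only just above CTRL 1, while the groups of Il13 overlapped fully. By limma-voom the log2 fold change of Il5 was 1.21 with an interval from -0.74 to 3.16 (adjusted p = 0.378), and that of Il13 was 0.015 with an interval from -1.59 to 1.62 (adjusted p = 0.992). The antisense transcript Gm12214 overlaps Il5, and the use of strand in counting was not stated.

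Il2 and Csf2 were among the weakest members. Il2, the T cell growth factor (ENSMUSG00000027720, chr3:37120523-37125959, minus strand), was measured at 0.0642 FPKM (CTRL 1) and 0.122 FPKM (CTRL 2) against 0.358 FPKM (KO 1) and 0.149 FPKM (KO 2). These values stood for at least 2, 4, 12 and 5 reads. Csf2, which encodes the myeloid growth factor GM-CSF (ENSMUSG00000018916, chr11:54247271-54249667, minus strand), was measured at 0.0590 FPKM (CTRL 1) and 0.112 FPKM (CTRL 2) against 0.274 FPKM (KO 1) and 0.382 FPKM (KO 2). At least 1, 2, 5 and 7 reads lay behind them. Both KO libraries lay above both CTRL libraries in Il2, Csf2 and Il5, that is in 3 of the 10 members, against 21.9% of the 19888 genes above 0.

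These differences rested on few reads. The KO to CTRL ratio of reads at equal depth was 2.70 for Il2 (95% interval 1.02 to 8.36, from 17 and 6 reads) and 3.81 for Csf2 (1.03 to 21.0, from 12 and 3 reads). It was 2.26 for Il5 (0.946 to 5.98, from 19 and 8 reads). These exact (Clopper-Pearson) intervals cover counting error only and compare the libraries, and the reads are the least that the values allow. With the spread between libraries included, limma-voom gave a log2 fold change of 1.23 for Il2 with an interval from -0.82 to 3.28 (adjusted p = 0.393) and of 1.65 for Csf2 with an interval from -0.47 to 3.78 (adjusted p = 0.268). Adad1, a neighbour whose annotation overlaps Il2 on the other strand, was listed at 0 in CTRL 1, CTRL 2 and KO 2 and was at 0.0574 FPKM in KO 1. An antisense transcript, Gm12223, overlaps Csf2.

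Il17a and Il17f, the Th17 cytokines that recruit neutrophils, and Il21, the Tfh cytokine that acts on germinal centre B cells, were ordered by replicate number. Il17a (ENSMUSG00000025929, chr1:20730905-20734496, plus strand) was at 0.573 and 0.629 FPKM in CTRL 1 and KO 1 but at 0.148 and 0.193 FPKM in CTRL 2 and KO 2. Il17f (ENSMUSG00000041872, chr1:20777146-20790617, minus strand) was at 0.388 and 0.529 FPKM in CTRL 1 and KO 1 but at 0.294 and 0.311 FPKM in CTRL 2 and KO 2. Il21 (ENSMUSG00000027718, chr3:37222759-37232636, minus strand) was at 1.05 and 1.52 FPKM in CTRL 1 and KO 1 but at 0.432 and 0.624 FPKM in CTRL 2 and KO 2. At least 11, 3, 13 and 4 reads stood behind Il17a in CTRL 1, CTRL 2, KO 1 and KO 2, 15, 12, 22 and 13 behind Il17f and 106, 46, 165 and 68 behind Il21. In all 3 genes both replicate 1 libraries lay above both replicate 2 libraries, and 13.7% of the 19888 genes above 0 had that arrangement. The labels do not say what libraries with the same number share.

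Genotypes overlapped in all 3 genes. Il21 entered the test only through its replicate 1 libraries, and its log2 fold change was 0.24 with an interval from -0.50 to 0.98 (limma adjusted p = 0.599). Without CTRL 2 it turned to -0.020, and without KO 2 it was 0.56. By limma-voom the log2 fold change was 0.24 for Il17a (interval -1.96 to 2.45, adjusted p = 0.890) and 0.26 for Il17f (interval -1.03 to 1.55, adjusted p = 0.793). The antisense transcript Gm12534 overlaps Il21.

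Markers of some other cells moved with the replicate number as well. All 8 myeloid markers (Lyz2, Itgam, Csf1r, Adgre1, Cd14, S100a8, S100a9 and Itgax) were higher in both replicate 1 libraries than in both replicate 2 libraries, and so were 4 of the 8 B cell markers, with summed levels of 1734, 998, 2594 and 1674 FPKM in CTRL 1, CTRL 2, KO 1 and KO 2. S100a8, a neutrophil gene, was at 3.66 and 17.1 FPKM in CTRL 1 and KO 1, whereas CTRL 2 listed it at 0 and KO 2 at 0.719 FPKM. Erythroid markers summed to 22.7, 4.16, 38.5 and 11.4 FPKM over 5 genes. Gamma delta T cells are another source of IL-17A, and 2 of their 5 markers were in the table (Sox13, and Blk, which is also a B cell gene). These summed to 0.887, 0.469, 1.59 and 0.590 FPKM in CTRL 1, CTRL 2, KO 1 and KO 2, again higher in both replicate 1 libraries, as was Blk alone. In contrast, 0 of 6 T cell markers, 1 of 6 Treg markers, 1 of 8 NK cell markers and 0 of 2 CD8 T cell markers had this arrangement. The part of these other cells in Il17a, Il17f and Il21 was not tested.

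**Figure D3:**
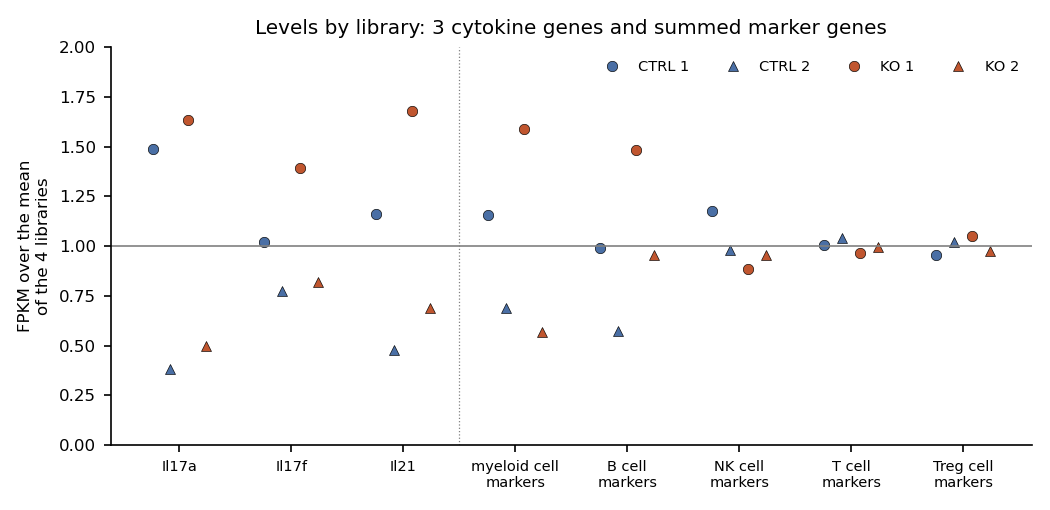
Each column gives the FPKM of a gene, or the summed FPKM of a marker list, in each library divided by the mean of the 4 libraries (circles replicate 1, triangles replicate 2, blue CTRL, orange KO). Il17a, Il17f, Il21 and the myeloid sum are higher in both circles than in both triangles, whereas the T cell and Treg cell sums stay close to 1.

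**Figure D4:**
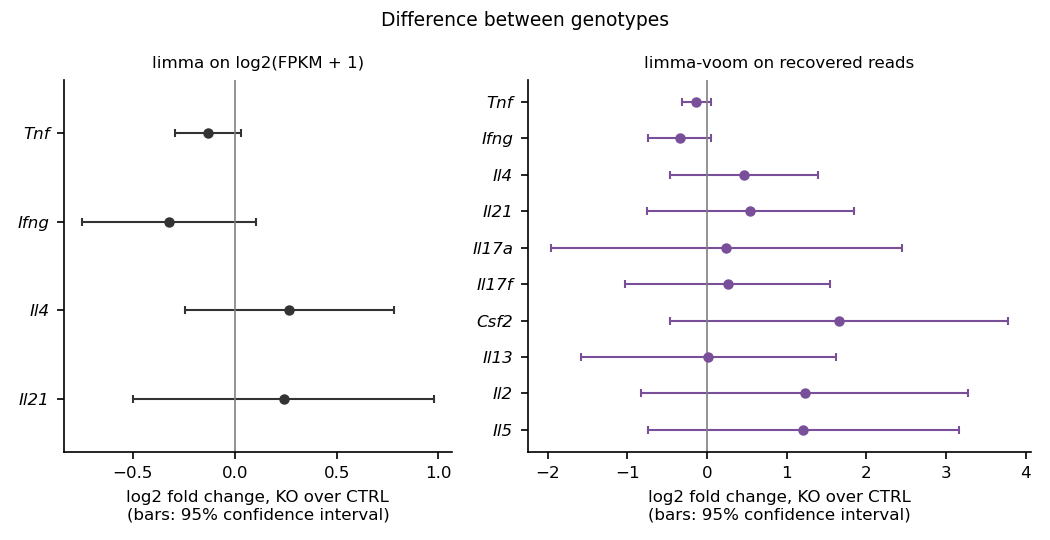
Points give the log2 fold change of KO over CTRL with its 95% confidence interval, on the left for the 4 members tested by limma on log2(FPKM + 1) and on the right for all 10 members by limma-voom on recovered reads. Every interval includes 0, and those of Tnf and Ifng are the narrowest on both sides.

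The regulators that direct these cytokines were compared next, as 10 lists of genes that overlap in part and hold 138 genes other than the members. Of these, 119 were tested, 18 rose and 5 fell in KO, with a median log2 fold change of 0.099 against -0.022 over all 11399 genes. Over all genes tested, 5.1% passed as higher and 4.65% as lower. The lists were chosen with earlier results of these data known, so these counts are no independent test of a rise. The 23 changed genes kept their direction in each of the 15 alternative fits and, in the fits with all 4 libraries, an unadjusted p under 0.05. These fits reused the libraries in which the genes had passed, so they are no independent test of the 23 genes. Their adjusted p was between 0.0299 and 0.0450 (limma), and it rose above 0.05 for all 23 when any 1 of the 4 libraries was left out or when all genes above 0 were tested.

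Of the Th1 list, 3 of 10 genes tested rose and none fell. Il12rb1, a chain of the IL-12 receptor, rose from 22.4 ± 0.70 to 34.6 ± 0.83 FPKM (each ± SD, n = 2), and its log2 fold change was 0.61. Cxcr3, the chemokine receptor of Th1 cells, rose from 65.7 ± 4.8 to 92.4 ± 4.6 FPKM, and Runx3, a partner of T-bet at Ifng, from 23.2 ± 1.7 to 31.4 ± 1.8 FPKM. Tbx21, which encodes T-bet itself, was at 5.35 and 5.43 FPKM in the CTRL libraries and 5.73 and 6.51 FPKM in the KO libraries (log2 fold change 0.15, limma adjusted p = 0.296). The median log2 fold change of the list was 0.17.

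Of the Th2 list, 1 of 10 rose and 1 fell. Nfil3, a transcription factor of several lymphoid lineages, rose from 31.4 ± 3.6 to 63.0 ± 14.3 FPKM, a log2 fold change of 0.97. Il1rl1, which encodes the IL-33 receptor ST2, fell from 11.9 ± 1.0 to 5.23 ± 1.44 FPKM, a log2 fold change of -1.07. Gata3, the Th2 master regulator, was at 53.1 and 63.3 FPKM in the CTRL libraries and 60.2 and 65.9 FPKM in the KO libraries, with groups that overlapped (log2 fold change 0.12, limma adjusted p = 0.457). The median of the list was 0.14.

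Of the Th17 list, 3 of 7 genes tested rose and none fell. Irf4 rose from 17.3 ± 0.97 to 31.8 ± 5.4 FPKM and Batf from 76.3 ± 4.8 to 108 ± 0.42 FPKM. These encode transcription factors that act together in activated T cells, effector Treg cells included. Ahr, a ligand-activated transcription factor, rose from 9.68 ± 0.021 to 14.9 ± 2.3 FPKM. Stat3 was at 69.0 ± 1.7 FPKM in CTRL and 71.3 ± 2.3 FPKM in KO (log2 fold change 0.046, limma adjusted p = 0.607). The median of this list was 0.25.

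Of the Tfh list, 3 of 8 genes tested rose and none fell, with a median of 0.30. Tox2, a chromatin factor of Tfh cells, had the largest log2 fold change of the list genes that passed, 1.21, from 19.5 and 20.3 FPKM in CTRL to 53.3 and 41.9 FPKM in KO. Cxcr5, which guides cells to B cell follicles, rose from 19.9 ± 1.9 to 30.3 ± 0.11 FPKM, and the costimulatory receptor Icos from 85.6 ± 7.6 to 133 ± 4.5 FPKM. Bcl6, the Tfh master regulator, was at 9.66 ± 0.28 FPKM in CTRL and 9.33 ± 0.028 FPKM in KO (log2 fold change -0.046, limma adjusted p = 0.678). B cell markers had both KO libraries above both CTRL libraries in 3 of 8 genes, against 21.9% of the 19888 genes above 0. All 6 B cell markers tested by limma had a log2 fold change above 0, with a median of 0.23, against -0.022 over all genes tested. None of the 6 passed. The 8 markers summed to 1734 and 998 FPKM in CTRL 1 and CTRL 2 and to 2594 and 1674 FPKM in KO 1 and KO 2. The part of B cells in this list was not tested.

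**Figure D5:**
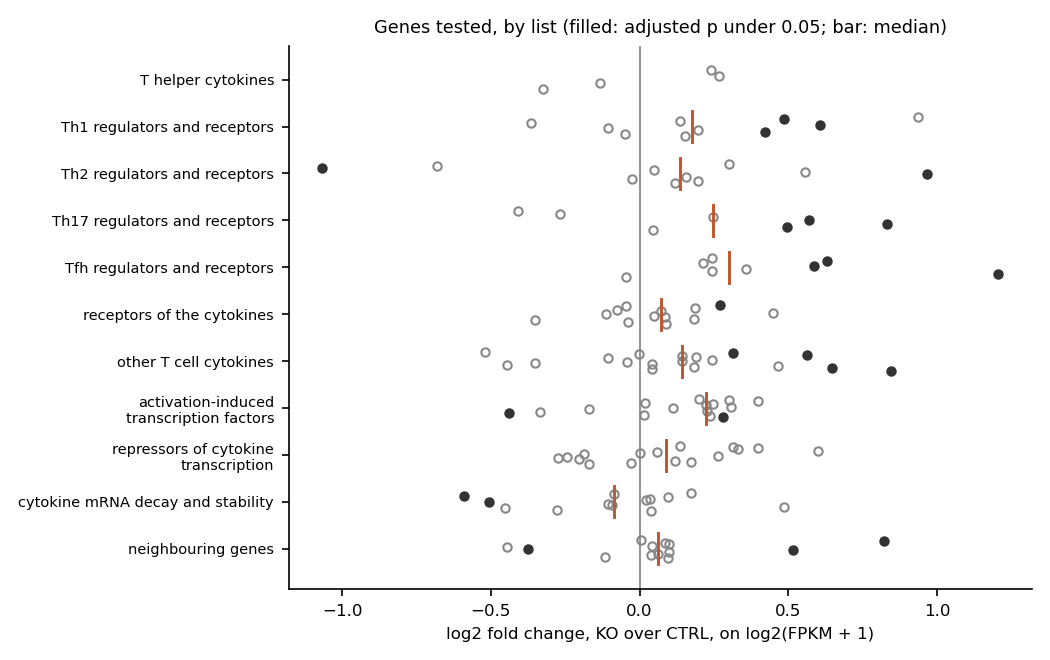
Each point is a gene tested by limma, placed by its log2 fold change of KO over CTRL, filled where the adjusted p was under 0.05, with a bar at the median of the list. The filled points of the Th1, Th17 and Tfh lists all lie to the right of 0, and no cytokine of the top row is filled.

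Several receptors for these cytokines stood at far higher levels than the cytokines they bind. Il2ra, the high-affinity chain of the IL-2 receptor, was at 123 and 148 FPKM in the CTRL libraries and 95.4 and 117 FPKM in the KO libraries, with Il2 at 0.358 FPKM or less in every library. The difference in Il2ra did not pass (log2 fold change -0.35, limma adjusted p = 0.138). Of 13 receptor genes tested, 1 passed. Tnfrsf1b, the TNF receptor prominent on Treg cells, rose from 83.5 ± 1.1 to 101 ± 2.8 FPKM (log2 fold change 0.27). Ifngr1 was at 97.7 to 107 FPKM and Il4ra at 48.7 to 55.0 FPKM over all libraries, and neither passed. Il5ra, Il17rc and Csf2rb2 did not reach the minimum for the test.

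A few other T cell cytokines rose, among them some that Treg cells are known for, while 14 of those tested did not pass. Of 26 such genes, 18 were tested, 4 rose and none fell. Il10, an inhibitory cytokine, was at 25.2 and 23.4 FPKM in the CTRL libraries and 48.6 and 40.6 FPKM in the KO libraries (log2 fold change 0.84, standard error 0.10, limma adjusted p = 0.0346). Ebi3, a subunit of IL-35 and IL-27, was at 19.0 and 21.1 FPKM in the CTRL libraries and 32.0 and 31.9 FPKM in the KO libraries (log2 fold change 0.65). Ccl5, a chemokine of effector T cells, rose from 45.3 ± 2.3 to 67.4 ± 3.7 FPKM, and Mif, a widely expressed inflammatory factor, from 218 ± 6.3 to 271 ± 13.0 FPKM. Whether these genes differ from the T helper cytokines in their response was not tested. Il3, Il9 and Il31 were listed at 0 in all 4 libraries.

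Factors that turn the cytokine genes on or hold them off were compared in the same way. Of 15 activation-induced transcription factors, Nfatc1 rose from 57.7 ± 0.28 to 70.3 ± 1.0 FPKM (log2 fold change 0.28) and Fos, a subunit of AP-1, fell from 282 ± 7.0 to 208 ± 2.3 FPKM (log2 fold change -0.44). Of 16 genes known to repress cytokine transcription or to act with Foxp3, 0 passed by limma, with 6 higher and 3 lower at an unadjusted p under 0.05 and a median of 0.090. At that cut 1855 genes were higher and 2099 lower of all 11399 tested. By limma-voom 5 of the 16 passed (4 higher and 1 lower), where 879 higher and 917 lower genes passed of 15223 tested. They are named after their values were seen. Prdm1, which encodes Blimp-1, had a log2 fold change of 0.68 (adjusted p = 0.0396), Ezh2, Dnmt1 and Runx1 were higher too, and Bach2 was lower at -0.31 (adjusted p = 0.0350). Foxp3, which defines the lineage and was also the Cre driver, was at 121 and 140 FPKM in the CTRL libraries and 112 and 119 FPKM in the KO libraries (log2 fold change -0.17, limma adjusted p = 0.238).

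Among 13 genes that control the decay or stability of cytokine mRNAs, including proteins that act at AU-rich elements such as those of Tnf and Csf2, none rose and 2 fell, with a median of -0.086. Tia1, which binds AU-rich elements and restrains Tnf translation, fell from 23.1 ± 0.40 to 15.0 ± 0.63 FPKM (log2 fold change -0.59). Rc3h2, which encodes the stem-loop binding protein Roquin-2, fell from 9.13 ± 0.55 to 6.14 ± 0.40 FPKM (log2 fold change -0.51). Zfp36, which encodes the AU-rich element binding protein tristetraprolin, was at 794 and 850 FPKM in the CTRL libraries and 826 and 862 FPKM in the KO libraries (limma adjusted p = 0.724). Its relative Zfp36l2 was at 464 and 445 FPKM in the CTRL libraries and 369 and 298 FPKM in the KO libraries (log2 fold change -0.45), and passed by limma-voom (adjusted p = 0.0339) but not by limma (adjusted p = 0.0620). Zc3h12a, which encodes the RNase Regnase-1, was at 68.5 and 84.0 FPKM in the CTRL libraries and 130 and 87.7 FPKM in the KO libraries, and Rc3h1 was at 7.93 to 9.47 FPKM over all libraries, and neither passed (limma adjusted p = 0.165 and 0.440).

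Of the genes next to the cytokine genes in the genome, 13 were tested, 2 rose and 1 fell. Beside Il4 and Il13, Rad50 was at 10.2 to 12.0 FPKM and Kif3a at 1.87 to 2.30 FPKM, and neither passed. Farther along the same cluster, Irf1, an interferon-responsive transcription factor, rose from 120 ± 1.3 to 173 ± 18.9 FPKM (log2 fold change 0.51), and the carnitine transporter Slc22a5 fell from 17.2 ± 0.42 to 13.0 ± 0.43 FPKM (log2 fold change -0.37). Near Il17a, the replication factor Mcm3 rose from 32.4 ± 2.8 to 57.9 ± 0.38 FPKM (log2 fold change 0.82). Beside Tnf, Lta was at 57.5 and 74.0 FPKM in the CTRL libraries and 45.2 and 50.2 FPKM in the KO libraries (log2 fold change -0.45, limma adjusted p = 0.0873), with both KO libraries below both CTRL libraries as for Tnf. Ltb, on the other side of Tnf, was at 484 to 593 FPKM and did not pass (limma adjusted p = 0.808). Nfkbil1 and Lst1 beside them, Mdm1 beside Ifng, and Nudt6 and Spata5 near Il21 did not pass either, with log2 fold changes from -0.12 to 0.10. Il22, which lies in the region of Ifng, was at 0.0778 to 0.416 FPKM.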

How the data were processed

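Splenic Treg libraries (2 CTRL, 2 KO) were analysed from FPKM that the authors deposited. Per their notes and methods, the authors mapped 150 bp read pairs to mm10 (GRCm38) with HISAT2 2.2.1, counted genes with featureCounts 2.0.1 and ran edgeR 3.34.0 on the counts. The gene length behind the FPKM, strand use and multi-mapped reads were not given in the sources used here. Columns named WT were read as CTRL by number.

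KO was compared with CTRL by limma 3.58.1 (R 4.3.3; lmFit, eBayes with trend, two-sided) on log2(FPKM + 1), over 11399 genes that reached 1 FPKM in 2 or more libraries, with Benjamini-Hochberg adjustment and a threshold of 0.05. This scale understates changes of low genes. The 4 low values of any gene were whole multiples of a common step, which gave the least reads behind each of 19888 genes above 0 (100% whole, within 0.001 reads). A gene above 0 in only 1 library matches by construction, and for the others multiples were tried until all values fitted. The 100% is therefore no check of the recovery. These reads are minima, because a factor shared by all 4 counts is hidden. Limma-voom on them, for genes with at least 10 reads in all, was chosen after seeing the data. Precision was set by 2 libraries per group (median standard error 0.087). Members and lists were chosen with earlier results of these data known. Genes named were the members, Setd2, list genes past the threshold, at most 3 well-known others per list, and neighbours of members above 1 FPKM. S100a8 and the genes listed at 0 were named after their values were seen. The fit was tested on simulated data. Positions came from GENCODE vM21, and promoters from RefSeq. Python 3.11.15, numpy 2.4.6 and pandas 2.3.3 were used. Alternatives were a pseudocount of 0.1, other filters, scalings and variance models, a replicate block, and leaving out each library.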

Additional observations from a re-analysis of the deposited data

How the results depend on the processing

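With 2 libraries per group, no T helper cytokine passed the threshold in any fit, and the direction held in all fits for Ifng, Tnf and Il4. For Ifng the log2 fold change ran from -0.57 to -0.081 when a library was left out, for Tnf from -0.18 to -0.086 and for Il4 from 0.069 to 0.47. Il21 could be tested without CTRL 2, where it reversed to -0.020, and without KO 2, at 0.56, and fell below the minimum without CTRL 1 or KO 1. With mean FPKM above 5 only Tnf and Ifng of the members remained. The number of members below the limit was 6 at 1 FPKM, 4 at 0.5 FPKM (Il17a and Il17f then lay above), 7 at 2 FPKM (with Il21) and 4 with each library scaled to a sum of 1000000.

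Counts over all genes moved more. With all genes above 0 tested, 0 genes were higher and 0 lower in KO by limma (2212 and 2251 without adjustment of p at 0.05). A minimum of 0.1 FPKM gave 357 higher and 256 lower genes, a fit without a variance trend 315 higher genes, and limma-voom 879 higher and 917 lower genes. Leaving out 1 library left 0 to 1 higher and 0 to 1 lower genes (1335 to 1415 and 1282 to 1628 unadjusted). Of the list genes together, 0 were higher and 0 lower with all genes tested (38 and 14 unadjusted), 10 higher without a variance trend and 3 lower at a minimum of 0.1 FPKM. Leaving out 1 library left 0 in either direction (30 to 35 higher and 11 to 16 lower unadjusted). The cause was not tested. Other fits gave 524 to 744 higher and 477 to 753 lower genes.

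Whether libraries of different genotype with the same replicate number shared anything else was not given in the labels. Over genes, the departures from the group mean correlated between libraries of the same number at 0.342 (Pearson) and 0.055 (Spearman), and a replicate block gave 968 higher and 805 lower genes, with 27 list genes higher and 11 lower. No cytokine passed with the block.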
